A study of Mus musculus with 38 samples.

Results

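The lysyl oxidase family was followed in omental tumors of 2 mouse models of high-grade serous ovarian cancer (HGSOC) and in the cell lines that the tumors grew from. Its members are the 5 genes Lox, Loxl1, Loxl2, Loxl3 and Loxl4, taken by their Ensembl identifiers from the 55487 genes of the deposited tables, and all 5 passed the filter on low counts in tumors and in cell lines. The 60577 tumors grew in female FVB mice and the HGS2 tumors in female C57BL/6J mice, injected intraperitoneally at 8 to 9 weeks of age with the cell line of the same name. Treated mice received 3 weekly doses of carboplatin at 20 mg/kg with paclitaxel at 10 mg/kg, starting 21 days (60577) or 49 days (HGS2) after injection, and control mice received vehicle. Tumors were taken 1 day (TP1), 1 week (TP2) or 3 weeks (TP3) after the last dose. The 60577 libraries were 3 TP1 control, 3 TP1 treated, 3 TP2 control, 4 TP2 treated and 4 TP3 treated tumors. The HGS2 libraries were 3 TP1 control, 3 TP1 treated, 4 TP2 control, 3 TP2 treated and 4 TP3 treated tumors. Each line was also sequenced in monoculture, with 2 libraries per line. There was no TP3 control group, so TP3 treated tumors were set against TP2 controls, where the effects of treatment and of time cannot be told apart. Both models differ in cell line, host strain and the age of the tumor, and each model is 1 line, so these cannot be told apart either.

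Lysyl oxidases are secreted, copper-dependent amine oxidases. They oxidize lysine side chains of collagen and elastin to aldehydes, which then form the covalent crosslinks that stiffen and stabilize the extracellular matrix (ECM). LOX and LOXL1 are made as proenzymes with a propeptide that is cut off outside the cell, LOXL1 being tied to elastic fibers, while LOXL2, LOXL3 and LOXL4 carry scavenger receptor domains in place of that propeptide. Fibroblasts are a known source in tumors, cancer cells can make the enzymes too, and LOX and LOXL2 are known to be induced by hypoxia and by TGF-beta.

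The catalytic core is what makes these 5 genes a family, and the stretch that codes for its copper-binding histidines is shown here for 4 members to show how alike, and how distinct, their transcripts are. The stretch is 42 bases long, is coding sequence on GRCm38 (GENCODE M21 transcripts), crosses an exon junction in each member, and is printed with capitals where the 4 members share a base.
Loxl1: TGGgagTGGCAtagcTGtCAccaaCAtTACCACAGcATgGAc
Loxl2: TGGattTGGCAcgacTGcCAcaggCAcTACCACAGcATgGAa
Loxl3: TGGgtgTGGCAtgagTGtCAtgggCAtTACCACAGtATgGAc
Loxl4: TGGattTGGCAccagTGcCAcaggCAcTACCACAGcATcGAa
The 4 members shared 26 of the 42 bases. Loxl2 and Loxl4 were the most alike pair of these 4, with 39 identical bases, and Loxl1 and Loxl4 the least alike, with 28. Over the whole longest coding transcripts no stretch of 50 bases was common to any pair of the 5 members. Stretches of 31 bases were common only to Lox and Loxl1, which shared 2, so these transcripts differ enough to tell the members from each other. Other isoforms and other genes were not compared. The printed stretches lie at chr9:58293711-58294381 (Loxl1), chr14:69682316-69689046 (Loxl2), chr6:83049995-83050134 (Loxl3) and chr19:42598798-42599899 (Loxl4), each with an intron inside these bounds.

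Tumor libraries held 17839641 to 49299421 counts and cell line libraries 31633099 to 42461989. Levels are given as RPKM, here CPM scaled by the TMM method and divided by the length of the merged exons in kilobases, and fold changes are on the log2 scale of the edgeR fit. A gene was called at a Benjamini-Hochberg adjusted p-value under 0.05 with an absolute log2 fold change over 1. HGS2 TP3 treated replicate 1, the shallowest library, is not in the study's own tables, so its values are shown but it was not fitted. Pancreatic acinar genes, which mark the organ next to the omentum, took 5.61% of the counts of HGS2 TP1 control replicate 3, 9.22% of HGS2 TP2 control replicate 2 and 6.09% of HGS2 TP3 treated replicate 2. The study describes its tumors as coming from individual mice, the labels do not say so for each library, and nothing says that the 2 libraries of a line were separate cultures, so the p-values for the lines measure only the spread between libraries, which may be technical.

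Lox (ENSMUSG00000024529) lies at chr18:52516067-52529867 on the minus strand and has 7 exons in its longest coding transcript. Loxl1 (ENSMUSG00000032334, chr9:58287738-58313186, minus strand) also has 7, while Loxl2 (ENSMUSG00000034205, chr14:69609068-69695834, plus strand) and Loxl3 (ENSMUSG00000000693, chr6:83034173-83052562, plus strand) have 14, and Loxl4 (ENSMUSG00000025185, chr19:42593982-42612813, minus strand) has 15. Loxl3 overlaps the protein-coding gene Htra2 on the other strand, Lox and Loxl2 overlap genes on the other strand too, and Loxl2 and Loxl3 each hold a microRNA gene, whereas Loxl1 and Loxl4 overlap no other annotated gene.

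Lox, Loxl1 and Loxl2 made up most of the lysyl oxidase transcripts in control tumors, and the models differed in which of them led. In 60577 control tumors the RPKM of the 5 genes summed to 212 ± 19.3 (SD, n = 3) at TP1 and 218 ± 6.72 (n = 3) at TP2. Loxl1 was the highest member in 5 of these 6 tumors, with a mean share of 43.2% at TP1 and 38.4% at TP2. In HGS2 control tumors the sums were 512 ± 201 (n = 3) and 538 ± 41.2 (n = 4), and Lox was the highest member in 6 of 7 tumors, with mean shares of 39.3% and 38.2%. Loxl3 held mean shares of 2.26% to 4.95% over the 4 control groups and Loxl4 0.149% to 0.371%. The order of the members was the same in all 38 libraries when the longest coding transcript replaced the merged exons as the length.

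**Figure D1:**
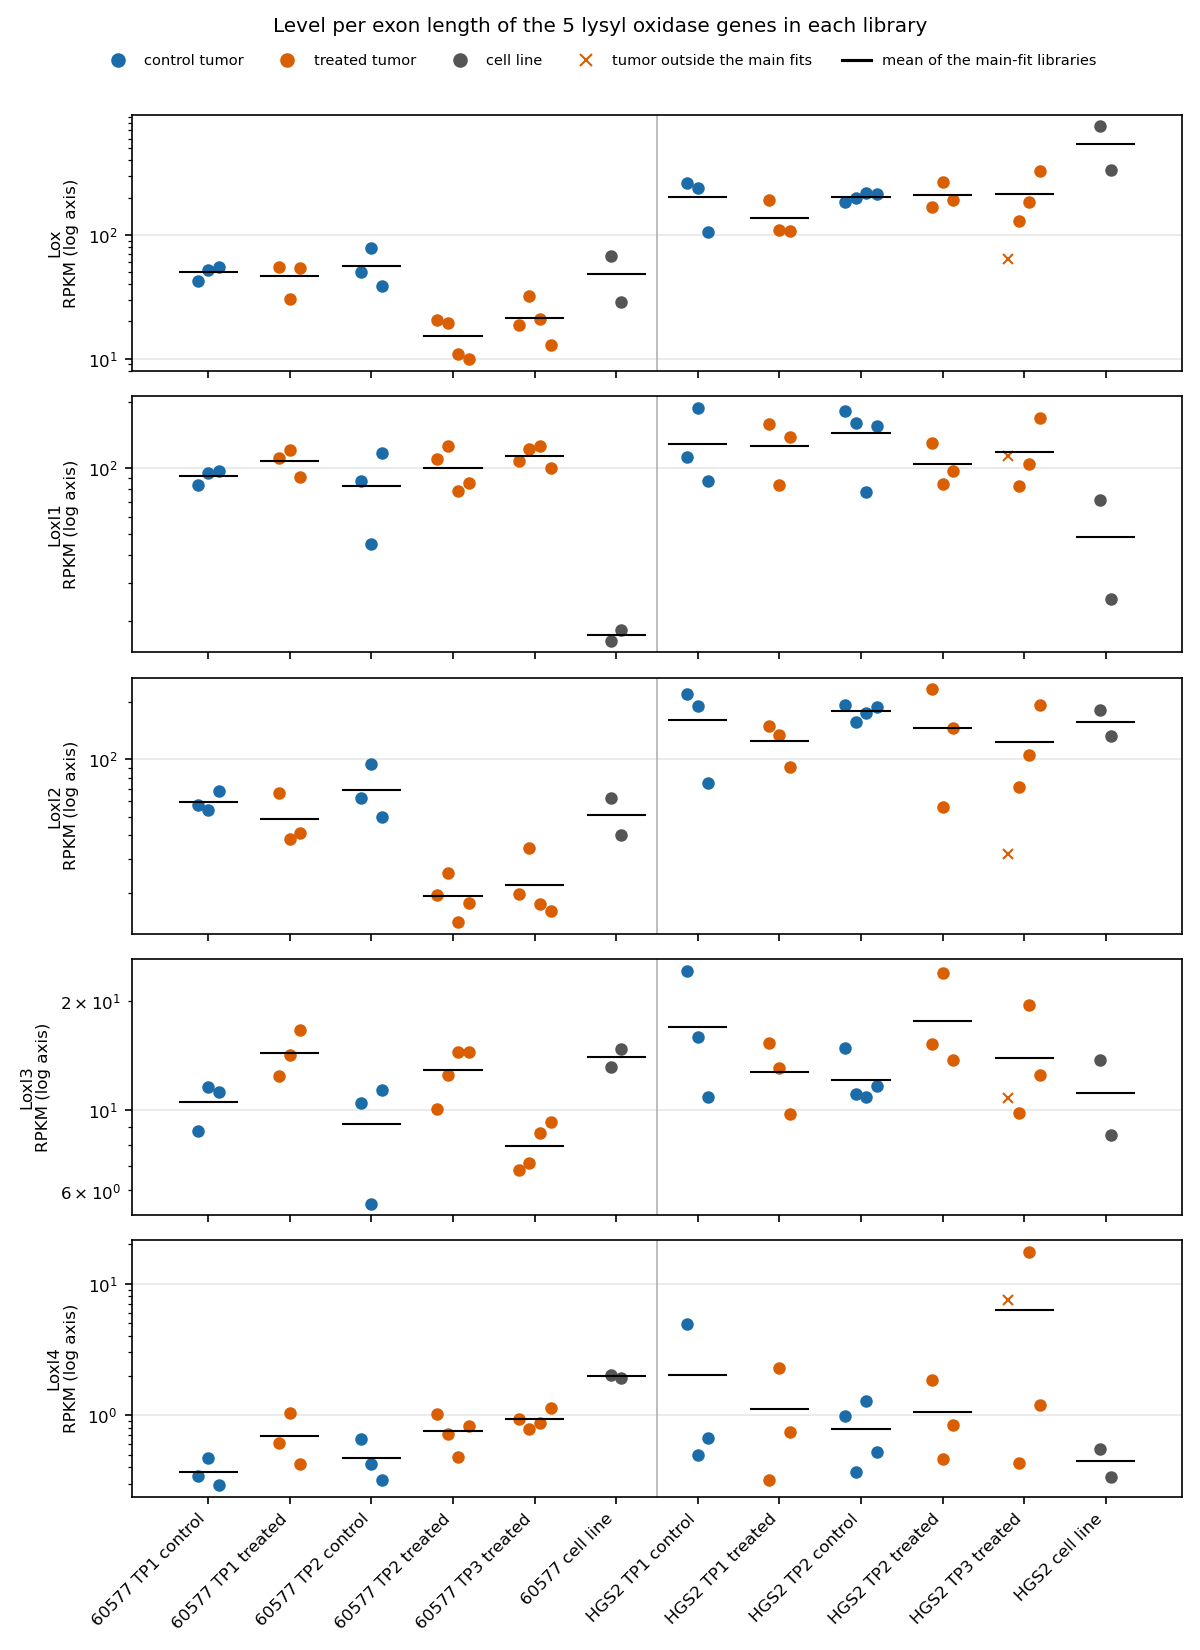
Level of each lysyl oxidase gene per library, in RPKM on log axes, for the 12 groups, with control tumors in blue, treated tumors in orange and cell lines in gray. Horizontal bars are means of the fitted libraries and the cross is HGS2 TP3 treated replicate 1. Lox and Loxl2 sat lower in the 60577 TP2 and TP3 treated tumors than in the 60577 TP2 controls, and Loxl4 was the lowest member in all 38 libraries. The cell line table was scaled apart from the tumor table.

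In 60577 tumors Lox and Loxl2 fell 1 week after chemotherapy while the other 3 members were not called. Lox, the founding member, stood at 42.5, 52.0 and 55.4 RPKM in the TP1 controls and at 54.7, 30.1 and 54.4 in the TP1 treated tumors, so the groups overlapped. At TP2 the controls held 50.1, 79.0 and 38.4 RPKM and the treated tumors 20.4, 19.5, 10.8 and 9.88, every treated tumor lying below every control. The log2 fold change of Lox was -1.89 (SE 0.34, 95% interval -2.63 to -1.16, adjusted p = 0.000358), a 3.72-fold lower level. The TP3 treated tumors held 18.6, 32.0, 20.9 and 13.0 RPKM, again all below the TP2 controls, with a log2 fold change of -1.39 (SE 0.34, adjusted p = 0.00316).

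Loxl2, which acts on fibrillar collagen and on basement membrane collagen, gave 57.4, 54.4 and 67.8 RPKM in the TP1 controls and 66.7, 38.3 and 40.8 in the TP1 treated tumors. The TP2 controls held 62.6, 94.7 and 49.8 RPKM, and the TP2 treated tumors 19.5, 25.4, 14.0 and 17.6, with no overlap. The log2 fold change of Loxl2 at TP2 was -1.87 (SE 0.29, 95% interval -2.49 to -1.24, adjusted p = 0.000122), a 3.65-fold lower level. At TP3 the treated tumors held 19.6, 34.1, 17.4 and 16.1 RPKM and the log2 fold change against the TP2 controls was -1.66 (SE 0.29, adjusted p = 0.000263). The calls of both genes at TP2 and at TP3 were kept under all 12 other settings and in all 17 fits that left out 1 tumor, although without TP2 control replicate 2, the highest control for both, the changes at TP3 shrank to -1.05 for Lox and -1.35 for Loxl2.

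Loxl1, the member linked to elastic fibers, was not called at any time point. Its levels were 83.7 to 96.6 RPKM in the 3 TP1 controls, 87.2, 44.9 and 117 in TP2 controls and 78.4 to 126 over the 11 treated tumors, which overlapped the controls at each time point. The log2 fold changes were 0.24 (SE 0.26) at TP1, 0.26 (SE 0.24) at TP2 and 0.46 (SE 0.24) at TP3, with adjusted p-values of 0.52, 0.365 and 0.124. The 95% interval at TP2 ran from -0.25 to 0.78. With a pancreatic acinar covariate the value was -0.16 at TP1 and 0.88 at TP2 (adjusted p = 0.00605), not called, and without TP2 control replicate 2 it was -0.03 at TP2.

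Loxl3, a scavenger receptor type member, was at 8.77, 11.6 and 11.2 RPKM in the TP1 controls and 12.4, 14.2 and 16.7 in the TP1 treated tumors. All 3 treated tumors lay above the controls, but the log2 fold change of 0.46 (SE 0.22, adjusted p = 0.127) was not called. At TP2 the controls held 10.5, 5.52 and 11.4 RPKM and the treated tumors 10.1, 12.5, 14.5 and 14.5, and the log2 fold change of 0.48 (SE 0.21, adjusted p = 0.0619) was not called either. The TP3 treated tumors held only 6.84, 7.14, 8.64 and 9.29 RPKM, below every TP2 treated tumor, and Loxl3 at TP3 was -0.67 (SE 0.20, adjusted p = 0.0189) relative to TP2 and -0.85 (SE 0.21, adjusted p = 0.00865) relative to TP1 treated tumors. Both passed the adjusted p-value and missed the fold change threshold.

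Loxl4 was the lowest member in 60577 tumors at every time point. It stood at 0.346, 0.468 and 0.294 RPKM in the TP1 controls and 0.617, 1.03 and 0.424 in the TP1 treated tumors, a log2 fold change of 0.91 (SE 0.35, adjusted p = 0.0591). The TP2 controls held 0.653, 0.428 and 0.323 RPKM and the 4 TP2 treated tumors 0.479 to 1.02, with a log2 fold change of 0.69 (SE 0.33, adjusted p = 0.0838). In the TP3 treated tumors Loxl4 was at 0.941, 0.781, 0.875 and 1.14 RPKM, above all TP2 controls, and the log2 fold change of 1.00 (SE 0.33, adjusted p = 0.0199) fell just short of the threshold. It passed with a slightly larger value in 3 of 12 other settings.

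In counts, 0 of 5 members were called at TP1 with edgeR, and 0 with DESeq2 and with limma-voom, while 1 had an unadjusted p-value below 0.05. In this comparison 15.6% of all 16241 tested genes were called. At TP2 2 of 5 members were called against 24.4% of all genes, and 24.4% of all genes also passed at TP3, where 2 of 5 members were called. DESeq2 and limma-voom called 2 members each at TP2. At TP3 DESeq2 called 2 and limma-voom 3, the third being Loxl4 (1.03, adjusted p = 0.0137). A count over 5 members is too small to be set against that share.

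**Figure D2:**
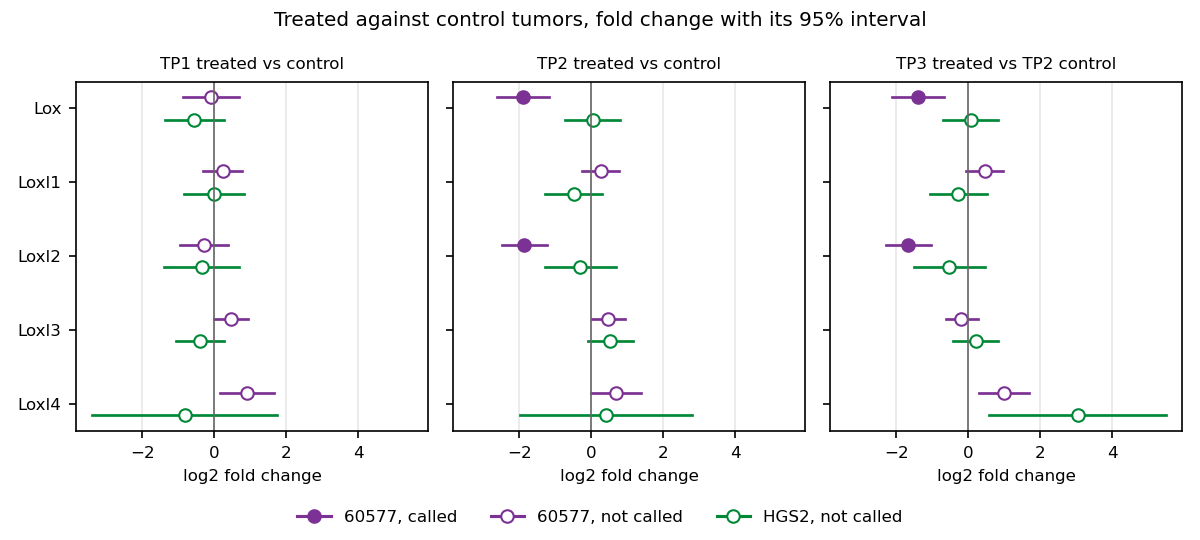
Log2 fold change of each member in treated against control tumors with its 95% interval, in 60577 (purple) and HGS2 (green), where filled points passed both thresholds. The filled points are Lox and Loxl2 in 60577, at -1.89 and -1.87 at TP2 and -1.39 and -1.66 at TP3 against TP2 controls.

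Comparing treated 60577 tumors with each other placed the lower levels of Lox and Loxl2 at TP2 and TP3. Lox was lower at TP2 than at TP1 by a log2 fold change of -1.62 (SE 0.34, adjusted p = 0.00851) and Loxl2 by -1.36 (SE 0.29, adjusted p = 0.00918), 2 of 5 members against 6.02% of all genes. Both calls were lost without TP1 treated replicate 1, with adjusted p-values of 0.0501 for Lox and 0.0692 for Loxl2. From TP2 to TP3 no member was called by edgeR, DESeq2 or limma-voom, 1 of 5 had an unadjusted p-value below 0.05, and 7.87% of all genes were called, and Lox stood at 0.50 (SE 0.32, adjusted p = 0.225). TP3 against TP1 gave -1.12 for Lox (SE 0.34, adjusted p = 0.025) and -1.15 for Loxl2 (SE 0.29, adjusted p = 0.0104), with 11% of all genes called. For Lox these groups overlapped, with TP3 treated replicate 2 at 32.0 RPKM and TP1 treated replicate 2 at 30.1. The calls of both genes were lost with a pancreatic acinar covariate and without TP1 treated replicate 1, and that of Lox in 5 of 17 fits that left out 1 tumor. Between TP1 and TP2 control tumors edgeR called 0% of all genes and no member, and 1501 genes and none of the 5 members had an unadjusted p-value below 0.05. DESeq2 called 70 genes there and limma-voom 0, with no member among them.

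The falls of Lox and Loxl2 changed the make-up of the family in 60577. The summed RPKM was 148 ± 30.3 (SD, n = 4) in TP2 treated tumors against 218 ± 6.72 (n = 3) in TP2 controls. The mean share of Loxl1 was 67.5% ± 1.07 in TP2 treated tumors and 69.1% ± 4.69 (n = 4) in TP3 treated tumors, and Loxl1 was the highest member in all 11 treated tumors. Lox held 10% ± 2.15 and Loxl2 12.9% ± 1.01 at TP2, where the 3 controls had held 25.5% ± 8.89 and 31.6% ± 9.76. Loxl3 held 9.14% ± 3.06 of the sum in TP2 treated tumors and 4.23% ± 1.54 in TP2 controls, and its share of 12.2% and 11.3% in treated replicates 3 and 4 was above that of Lox.

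**Figure D3:**
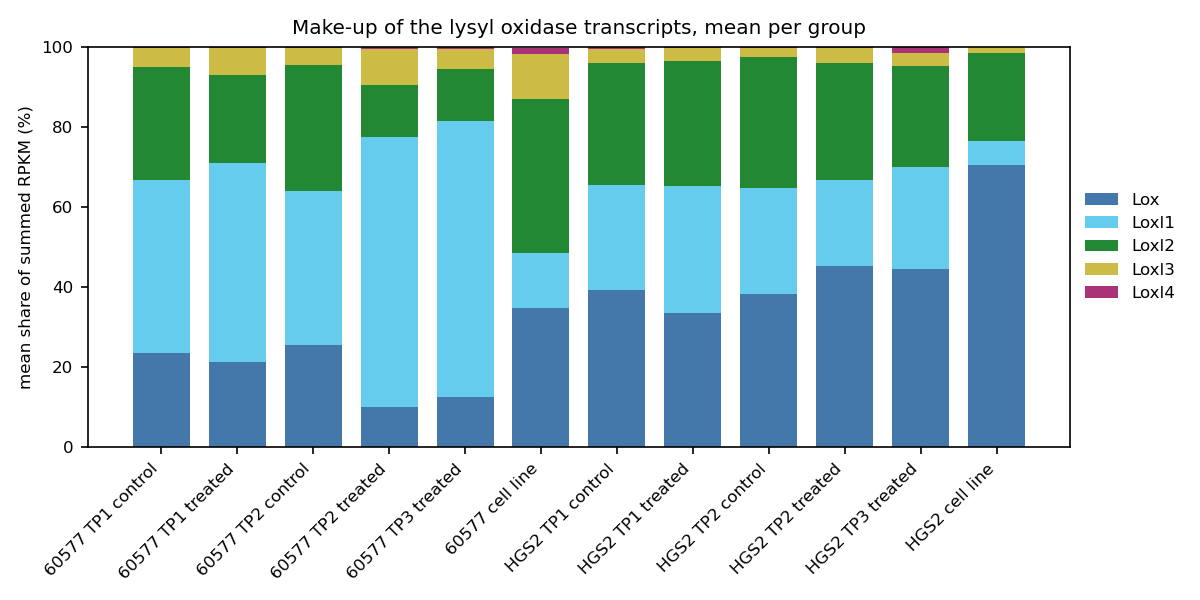
Mean share of each member in the summed RPKM of the family, in percent, per group. In treated 60577 tumors at TP2 and TP3 the Loxl1 share was 67.5% and 69.1%, in HGS2 tumors Lox, Loxl1 and Loxl2 were closer to each other, and in the HGS2 line Lox held 70.4%.

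In HGS2 tumors no member was called after chemotherapy, and the treated and control values overlapped for all 5 members at every time point. Lox stood at 262, 241 and 106 RPKM in the TP1 controls and 190, 110 and 108 in the TP1 treated tumors. The TP2 controls held 185, 197, 220 and 212 RPKM and the TP2 treated tumors 169, 270 and 190, a log2 fold change of 0.04 (SE 0.36, 95% interval -0.73 to 0.80, adjusted p = 0.983). The TP3 treated tumors held 129, 185 and 327 RPKM, and 63.9 in replicate 1, with 0.08 (SE 0.36, adjusted p = 1) over the fitted tumors. The 95% interval at TP2 did not reach the -1.89 measured in 60577.

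Loxl2 in HGS2 was at 218, 190 and 75.2 RPKM in the TP1 controls, 149, 133 and 91.2 in the TP1 treated tumors and 191, 157, 175 and 187 in the TP2 controls. The TP2 treated tumors spread from 55.9 to 232 RPKM with the third at 146, and the TP3 treated tumors held 71.8, 105 and 191, and 32.0 in replicate 1. The log2 fold changes were -0.35 (SE 0.49) at TP1, -0.30 (SE 0.46, 95% interval -1.29 to 0.68) at TP2 and -0.53 (SE 0.46) at TP3. Loxl1 ranged from 78.0 to 188 RPKM over the 7 controls, and its log2 fold changes were -0.01 (SE 0.39), -0.49 (SE 0.37) and -0.28 (SE 0.37). Loxl3 gave -0.39 (SE 0.31), 0.53 (SE 0.29) and 0.21 (SE 0.29), its 3 TP2 treated tumors holding 15.2, 23.9 and 13.8 RPKM against 14.9, 11.1, 10.9 and 11.7 in the controls.

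Loxl4 was the most uneven member in HGS2, with single tumors far above the others. The TP1 controls held 4.95, 0.497 and 0.665 RPKM, the TP1 treated tumors 0.322, 2.27 and 0.74, the TP2 controls 0.989, 0.368, 1.27 and 0.522 and the TP2 treated tumors 1.84, 0.463 and 0.846. The TP3 treated tumors held 0.432, 17.4 and 1.19 RPKM, and 7.5 in replicate 1. Its log2 fold change at TP3 was 3.04 with a standard error of 1.14 and an adjusted p-value of 1, the unadjusted p-value being 0.0191.

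In the 3 treated against control comparisons of HGS2, edgeR called 0% of all 16241 genes and 0 of 5 members. The genes with an unadjusted p-value below 0.05 numbered 413 at TP1, 1233 at TP2 and 406 at TP3, where only Loxl4 at TP3 was a member. DESeq2 called 1, 8 and 5 genes and limma-voom none, with no member among them. The 4 comparisons between time points in HGS2 likewise held no called gene with edgeR, 152 to 1690 genes and no member with an unadjusted p-value below 0.05, 1 to 105 genes called by DESeq2 and 0 by limma-voom, and no called member with any of the 3 tools. Leaving out the 3 tumors with the most pancreatic acinar counts gave Lox -0.89 at TP1, 0.03 at TP2 and 0.32 at TP3, with none called.

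Tested directly, the difference in response between the models was called for Lox and for no other member. The difference in response, HGS2 minus 60577, was 1.92 for Lox at TP2 (SE 0.51, 95% interval 0.88 to 2.96, adjusted p = 0.0206), where 6.9% of all genes were called. The call was lost without 60577 TP2 control replicate 2 (1.59, adjusted p = 0.0882) and with a replicate block and an offset for length and GC content (1.66, adjusted p = 0.0712). At TP3 against TP2 controls it was 1.47 (SE 0.51, adjusted p = 0.0434) with 12.4% of all genes called, and this call was lost in 6 of 12 other settings and in 13 of 33 fits that left out 1 tumor, with an adjusted p-value of 0.159 over all 34 tumors. Loxl2 gave 1.56 at TP2 (SE 0.55, 95% interval 0.42 to 2.69, adjusted p = 0.0671) and 1.13 at TP3 (SE 0.55, adjusted p = 0.155), neither called. The TP2 value of Loxl2 passed in 3 of 12 other settings, among them the fit without the 3 pancreatic-rich tumors (1.55, adjusted p = 0.0493). At TP1 no member was called by edgeR, DESeq2 or limma-voom, 1 of 5 had an unadjusted p-value below 0.05, and 1.45% of all genes were called, Lox standing at -0.47 (SE 0.54) and Loxl3 at -0.88 (SE 0.40, adjusted p = 0.236).

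**Figure D4:**
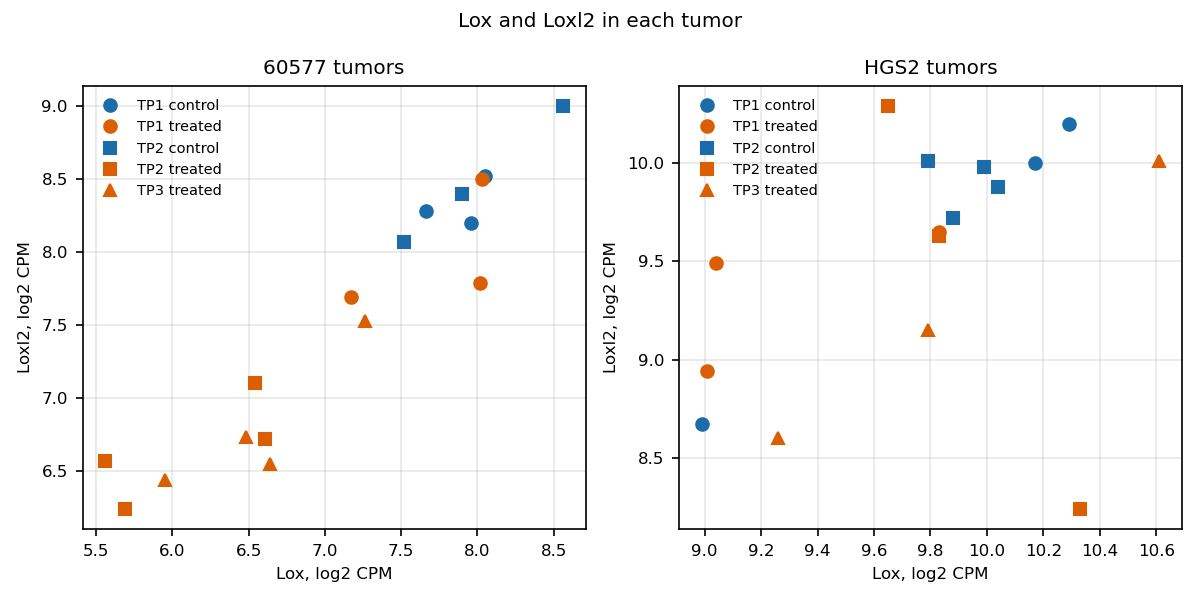
Lox against Loxl2 in each fitted tumor, both as log2 CPM, in 60577 (left) and HGS2 (right), with blue for control and orange for treated tumors and a shape per time point. In 60577 the TP2 and TP3 treated tumors lie at the lower left and the 2 genes go together (r = 0.95 over 17 tumors), while HGS2 tumors scatter (r = 0.43 over 16 tumors).

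Without chemotherapy, HGS2 tumors held more lysyl oxidase transcripts than 60577 tumors. Over the control tumors of both time points Lox averaged 203 RPKM in HGS2 (n = 7) and 52.9 in 60577 (n = 6) with no overlap, a log2 fold change of 1.94 (SE 0.28, 95% interval 1.38 to 2.51, adjusted p = 2.49e-06). Loxl2 averaged 170 and 64.4 RPKM, a log2 fold change of 1.39 (SE 0.30, adjusted p = 0.000354), and here HGS2 TP1 control replicate 3, 1 of the pancreatic-rich tumors, overlapped the 60577 range at 75.2. Both calls were kept in all 12 other settings and all 33 fits without 1 tumor. Loxl4 at 1.32 and 0.419 RPKM gave 1.61 (SE 0.65, adjusted p = 0.0403), which rested on single tumors, since it was 0.70 with an adjusted p-value of 0.353 without HGS2 TP1 control replicate 1. The Loxl4 call was kept in only 9 of 12 other settings and 25 of 33 fits without 1 tumor. With limma-voom it was lost (1.18, adjusted p = 0.284). Loxl1 (0.64, SE 0.23, adjusted p = 0.0224) and Loxl3 (0.55, SE 0.20, adjusted p = 0.0208) passed the p-value and not the fold change. With edgeR that makes 3 of 5 members called, all higher in HGS2, where 22% of all genes were called.

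In TP3 treated tumors the models differed in Lox and Loxl2 as well. Over the TP3 treated tumors Lox was at 214 RPKM in HGS2 (n = 3) and 21.1 in 60577 (n = 4), a log2 fold change of 3.34 (SE 0.38, adjusted p = 3.22e-07). For Loxl2 the means were 122 and 21.8 RPKM and the log2 fold change 2.49 (SE 0.40, adjusted p = 4.05e-05). Among the fitted tumors neither gene overlapped between the models. The unfitted HGS2 replicate 1 held 32.0 RPKM of Loxl2, below 60577 replicate 2 at 34.1, so with it Loxl2 overlapped. Loxl1 was at 119 and 114 RPKM, with 0.06 (SE 0.31, 95% interval -0.58 to 0.70). Loxl4 gave 2.77 (SE 0.86, adjusted p = 0.0158), but the value was -0.20 without HGS2 TP3 treated replicate 3. The Loxl4 call was also lost with limma-voom (1.55, adjusted p = 0.169) and with the compared groups alone (2.80, edgeR adjusted p = 0.0916). Again 3 of 5 members were called by edgeR, against 16% of all genes.

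The cell lines in monoculture differed in the same 3 genes, with Loxl4 in the other direction. Lox was at 753 and 337 RPKM in the HGS2 line and 67.1 and 28.8 in the 60577 line, a log2 fold change of 3.51 (SE 0.62, 95% interval 1.96 to 5.06, adjusted p = 0.0203). Loxl2 was at 181 and 132 against 62.2 and 40.1 RPKM, with 1.61 (SE 0.32, adjusted p = 0.0278). Loxl4 was at 0.552 and 0.34 RPKM in the HGS2 line and 2.02 and 1.93 in the 60577 line, with -2.15 (SE 0.36, adjusted p = 0.018). Loxl1 at 71.6 and 25.2 against 16.3 and 18.3 RPKM gave 1.49 (SE 0.49, adjusted p = 0.0932), called by DESeq2 (adjusted p = 0.0129) and not by edgeR, and Loxl3 gave -0.33 (SE 0.27, adjusted p = 0.434). Of all 13742 genes tested in the lines, 15.9% were called. With 2 libraries per line the calls were fragile, and all 3 were lost when either 60577 library was left out.

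Side by side with the tumors, in a table that was scaled separately, the lines held lower Loxl1 levels than the tumors. Loxl1 averaged 17.3 RPKM in the 60577 line, with a share of 13.8%, while 60577 control tumors held 44.9 to 117. In the HGS2 line it averaged 48.4 RPKM, with a share of 6.02%, against 78.0 to 188 in HGS2 control tumors. Lox in the 60577 line, at a mean of 48 RPKM, was within the range of its control tumors, and Lox in the HGS2 line, at a mean of 545, was above all HGS2 tumors. No test was run between the tables.

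Placed in order of their means over the 12 groups, most neighbors overlapped. For Lox the order ran from the HGS2 line and the HGS2 tumors down to 60577 TP3 and TP2 treated tumors, and 2 of 11 steps were free of overlap, that from the HGS2 line to HGS2 TP3 treated tumors and that from HGS2 TP1 treated to 60577 TP2 control tumors. For Loxl2 the only such step of 11 lay between 60577 TP1 treated and 60577 TP3 treated tumors. For Loxl1 it lay between the 2 cell lines, which were last, and for Loxl3 and Loxl4 all 11 steps overlapped.

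The genes that lysyl oxidases work with were counted in 8 lists, of which P4ha1 and Ltbp1 each stand in 2. Fibrillar collagens, the main substrate, were higher in 60577 at TP1, when no member was called, with 6 of 11 called higher and none lower where 9.65% of all genes were called higher and 5.96% lower. Col1a1, a chain of type I collagen, rose by 1.29 (SE 0.29, adjusted p = 0.00364) and Col3a1, the chain of type III collagen, by 1.89 (SE 0.26, adjusted p = 0.00011). At TP2, where 14.8% of all genes were called higher and 9.61% lower, 2 of 11 were higher, Col24a1 (1.60, SE 0.50) and Col27a1 (1.52, SE 0.27), while Col1a1 stood at 0.15 (SE 0.27, adjusted p = 0.655). At TP3, with 14.2% of all genes called higher and 10.2% lower, only Col11a1 was called, lower at -1.40 (SE 0.52, adjusted p = 0.0341). The medians of the list were 1.06, 0.28 and -0.32, next to -0.00, 0.03 and -0.00 over all genes.

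Elastic fiber genes, the other substrate group, had 6 of 15 called higher and 1 lower at TP1, 3 higher and 1 lower at TP2 and 6 higher at TP3. Over all genes 9.65% were called higher and 5.96% lower at TP1, and 14.8% and 9.61% at TP2. At TP3 these shares were 14.2% and 10.2%, and they stand beside the counts of each 60577 list that follows. Elastin itself was the gene that fell at TP1 (Eln, -1.40, SE 0.52, adjusted p = 0.0484), and it stood at -0.36 (SE 0.47) at TP2 and 0.02 (SE 0.47) at TP3. Fbln1, a fibulin of the matrix, rose by 1.53 at TP2 (SE 0.29) and by 2.49 at TP3 (SE 0.31), with adjusted p-values of 0.000535 and 1.15e-05. The microfibril gene Mfap4 rose by 1.75 (SE 0.52) at TP1 and 2.83 (SE 0.52) at TP3.

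Of the genes that process the proenzymes and procollagens, 2 of 9 tested rose at TP1, Bmp1, the protease that activates LOX (1.04, SE 0.24, adjusted p = 0.00381), and Tll1, its relative (1.81, SE 0.55). At TP2 Tll1 was higher (2.81, SE 0.55) and the fibronectin gene Fn1 lower (-1.29, SE 0.28, adjusted p = 0.00121), while Bmp1 at 0.82 (SE 0.22) missed the fold change. At TP3 3 were higher and 1 lower, Bmp1 standing at -0.25 (SE 0.22). Collagen hydroxylases and the collagen chaperone, which act before secretion, had 1 of 15 called higher at TP1 and 4 lower at TP2, and at TP3 1 higher and 5 lower. The prolyl hydroxylase subunits P4ha2 (-2.08, SE 0.33) and P4hb (-1.74, SE 0.24) fell most at TP2, and Plod2, the lysyl hydroxylase of collagen telopeptides, was at -0.64 (SE 0.29, adjusted p = 0.0697).

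Among copper handling genes 0 of 8 were called at TP1 and 2 were lower at TP2, the metallothioneins Mt2 (-2.55, SE 0.42) and Mt1 (-2.50, SE 0.45), which were also the 2 that were lower at TP3. Atp7a, the pump that loads copper onto secreted enzymes, stood at 0.05 (SE 0.11), -0.42 (SE 0.11) and -0.45 (SE 0.10), the last 2 with adjusted p-values of 0.00324 and 0.00225 and below the fold change threshold. Of the 3 other copper amine oxidases 2 were higher at TP1, among them Aoc3, an adhesion protein of vessels and fat (2.23, SE 0.83, adjusted p = 0.0494). At TP2 1 was higher, and at TP3 Aoc3 was higher (5.07, SE 0.91) and Aoc1 lower (-1.78, SE 0.55).

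Most hypoxia response genes were lower at TP2 and TP3, the time points at which Lox and Loxl2 were. A link between them was not tested. Their sums in the ordered TP2 controls were 2833, 3206 and 8601 CPM, so 1 control lay far above the others. TP2 treated tumors held 985 to 1400 CPM and TP3 treated tumors 1534 to 1787. At TP1 1 of 17 was higher and 3 lower, at TP2 15 of 17 were lower, and at TP3 12 were lower and 1 higher, with medians of -0.08, -2.12 and -1.73. The growth factor gene Vegfa stood at -0.91 (SE 0.41, adjusted p = 0.106) at TP1 and fell by 2.12 (SE 0.39, adjusted p = 0.000376) at TP2 and by 2.97 (SE 0.40, adjusted p = 2.43e-05) at TP3. The carbonic anhydrase gene Car9 fell at each time point, by 2.64, 3.15 and 4.54. TGF-beta ligands, receptors and targets moved less, with 2 of 14 higher at TP1, 1 lower at TP2 and 2 higher and 1 lower at TP3. The ligand gene Tgfb1 was at -0.36 (SE 0.14, adjusted p = 0.0354) at TP2, below the fold change threshold.

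**Figure D5:**
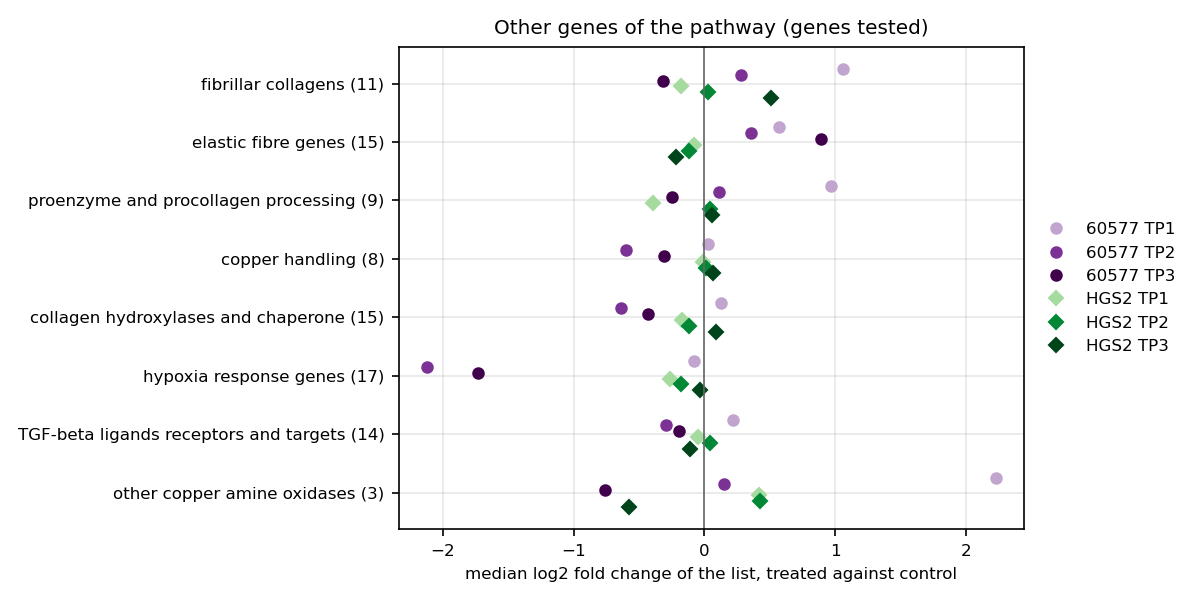
Median log2 fold change of each list of pathway genes in treated against control tumors, with 60577 as circles and HGS2 as diamonds, darker with time, and the number of genes tested in brackets. TP3 is set against TP2 controls. The hypoxia list of 60577 lies at -2.12 at TP2 and -1.73 at TP3, and in HGS2 at -0.18 and -0.03.

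In HGS2 no gene of any of the 8 lists was called after treatment, where 0% of all genes were. In the direct test of the difference in response, 9 of 17 hypoxia genes were called at TP2, all with the larger value in HGS2. So were 4 of 15 collagen hydroxylase genes, all in the same direction, where 6.9% of all genes were called. Between control tumors 9 of 11 fibrillar collagens, 8 of 15 elastic fiber genes, 6 of 9 processing genes and 7 of 15 hydroxylase genes were higher in HGS2 and none lower, while of 17 hypoxia genes 1 was higher and 3 were lower (median -0.35). Higher were Col1a1 by 3.25 (SE 0.39), Col3a1 by 2.92 (SE 0.28) and Col11a1 by 6.20 (SE 0.60), with 13.2% of all genes called higher and 8.81% lower. Bmp1 (1.10, SE 0.22) and Plod2 (1.71, SE 0.28) were higher too, Vegfa was lower (-1.13, SE 0.28), and Eln stood at -0.13 (SE 0.49) and Tgfb1 at 0.06 (SE 0.16). In the cell lines 4 of 9 tested fibrillar collagens, 6 of 13 elastic fiber genes and 9 of 15 hydroxylase genes were higher in HGS2, 1 elastic fiber gene was lower, and 7.55% of all genes were called higher and 8.38% lower.

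The cell make-up of the tumors moved with treatment too, and in bulk RNA fewer cells of a type and less RNA per cell cannot be told apart. Epithelial tumor cell markers summed to 1585 to 1976 CPM in 60577 TP1 controls and 324 to 632 in TP1 treated tumors, then 1884 to 2897 in TP2 controls, 304 to 585 in TP2 treated and 204 to 325 in TP3 treated tumors, and all 6 tested markers were lower at each time point. The keratin gene Krt18 fell by 2.11 at TP1 and by 3.15 at TP2, while Lox stood at -0.10 (SE 0.37) at TP1 and -1.89 at TP2. Of the 9 fibroblast markers 3 were higher at TP1, 3 higher and 1 lower at TP2 and 6 higher and 1 lower at TP3. Over all genes 9.65% were called higher and 5.96% lower at TP1, 14.8% and 9.61% at TP2 and 14.2% and 10.2% at TP3. Mesothelial markers had 5 of 6 lower at TP1, 2 at TP2 and 4 at TP3. The part of these shifts in the falls of Lox and Loxl2 was not tested.

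At TP2 in 60577, adipocyte markers were higher in 6 of 6, T cell markers in 5 of 5 and B cell markers in 4 of 4. Macrophage markers were higher in 2 of 6 and endothelial markers in 1 of 6, where 14.8% of all genes were called higher. Neutrophil markers were lower in 3 of 4 and pancreatic acinar markers in 8 of 8, where 9.61% of all genes were called lower. The pancreatic markers summed to 2.11, 304 and 1632 CPM in the ordered TP2 controls and to 1.4 to 23.7 in the TP2 treated tumors, and the calls of Lox and Loxl2 at TP2 were kept with a covariate for them. HGS2 control tumors held less epithelial marker RNA than 60577 control tumors, from 20.7 to 795 CPM over the 7 controls, with Krt18 lower by a log2 fold change of -3.27 (SE 0.53). The TP3 treated tumors of the models overlapped, at 168 to 325 CPM in HGS2 and 204 to 325 in 60577. The HGS2 line itself held 825 to 1397 CPM and the 60577 line 4337 to 4616. Fibroblast markers summed to 1760 to 3111 CPM in HGS2 control tumors and 860 to 1039 in 60577 control tumors, without overlap. The part of these differences in the higher Lox and Loxl2 of HGS2 tumors was not tested. In both lines the T cell, B cell, macrophage and adipocyte markers summed to at most 4.69 CPM. Fibroblast markers, in contrast, summed to 1045 to 1235 CPM in the 60577 line and 1156 to 2311 in the HGS2 line. Mesothelial markers summed to 3577 to 3893 CPM in the 60577 line and 2144 to 3416 in the HGS2 line. The fibroblast and mesothelial lists were thus also expressed by the lines, and in tumors they do not mark host cells alone.

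Across the 17 fitted 60577 tumors Loxl2 had rank 14 among all tested genes in its correlation with Lox (Pearson r = 0.95, and 0.81 after removal of group means), as a description over tumors that share their groups. The 3 genes most like Lox were Tpm4, Nras and Abcf2, each at r = 0.97, and those most like Loxl2 were Eif3b (0.97), Nup50 (0.96) and Tnfrsf12a (0.96). Loxl1 was most like Fmod, Col6a2 and Heyl (each 0.87), Loxl3 most like Ttyh3 (0.92), Kif26b (0.92) and Pqlc1 (0.90), and Loxl4 most like Rab27a, C4b and Clec3b (each 0.93). Lox and Loxl1 had r = -0.29, and Loxl4 had r = -0.60 with Lox and -0.64 with Loxl2, which shrank to -0.16 and -0.05 within groups.

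Across the 16 fitted HGS2 tumors Lox and Loxl2 went less together than in 60577, with r = 0.43, but other pairs did not all do so. Lox and Loxl3 had r = 0.53 and Loxl1 and Loxl2 0.57, where the 60577 values were -0.19 and -0.37. Loxl1 and Loxl4 were lower in HGS2, at -0.24 against 0.41 in 60577. The genes most like each member were Pak3 (0.87), Pgam1 (0.84) and Armh3 (0.83) for Lox, Cpne8 (0.88), D130017N08Rik (0.87) and Usp54 (0.86) for Loxl1, and Samd4 (0.92), Heatr5b (0.90) and Pdcd6ip (0.90) for Loxl2. For Loxl3 they were Urm1 (0.86), Smg5 (0.86) and Haus7 (0.84), and for Loxl4 Lrrfip2 (0.88), Antxr2 (0.86) and Cox6c (0.85). No gene was among the 3 most alike of a member in both models.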

How the data were processed

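Bulk RNA from 34 omental tumors and 4 cell line libraries was sequenced after rRNA depletion, strand-specific and paired-end. The authors trimmed reads with Trim Galore, mapped them with STAR to GRCm38 and deposited RSEM expected counts per gene, not normalized, in 1 table for tumors and 1 for lines. Whether counting used strand was not given in the sources used here. Expected counts were rounded, a gene was kept if 25% or more of the libraries had 1 CPM or more, and edgeR 4.0.16 (TMM, quasi-likelihood test, Benjamini-Hochberg adjustment over all tested genes) was fitted within each model, over both models for comparisons between them, and within the line table. DESeq2 1.42.0 and limma 3.58.1 were alternatives. All tests were two-sided. HGS2 TP3 treated replicate 1 was left out of the fits, leaving 33 tumors. Members and gene lists were chosen with earlier results of these data known. Named besides the members were fixed representatives of each list, the 2 genes of a list with the largest called change, and the 3 genes most correlated with each member. One gene that this rule names is not reported here. Sequences came from GENCODE M21 transcripts. No libraries were found to be copies of each other.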

Additional observations from a re-analysis of the deposited data

Results flagged for a closer look

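The response of Lox to chemotherapy differed between the models in a test of the difference itself. At TP2 the difference, HGS2 minus 60577, was 1.92 on the log2 scale (edgeR adjusted p = 0.0206), with all 4 treated 60577 tumors below their 3 controls and overlapping groups in HGS2. At TP3 against TP2 controls it was 1.47 (edgeR adjusted p = 0.0434). The TP2 call was lost without 60577 TP2 control replicate 2 (edgeR adjusted p = 0.0882) and with a replicate block and length and GC content offset (edgeR adjusted p = 0.0712), and the TP3 call in 6 of 12 other settings and 13 of 33 fits that left out 1 tumor. A gap test for single outlying libraries was run only where a group had 4 libraries, over 20 combinations of member and group, and marked none. It did not cover smaller groups, among them the 60577 TP2 controls, so it cannot show that no single library carried these results.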

How the results depend on the processing

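Of the log2 fold changes of members under settings other than leaving out a tumor or line library, 1191 kept their side of the threshold, of which 42, none of them called, changed sign, 14 became called and 15 lost the call. In 60577 treated tumors, a pancreatic acinar covariate gave 1 called member at TP3 against TP2 (none otherwise) and 1 at TP3 against TP1 (2 otherwise), and fitting both models together gave 1 at TP3 against TP1. The difference in TP2 response had 1 called member, 2 with DESeq2, 2 with a pancreatic acinar covariate and 2 without the pancreatic-rich tumors, a setting chosen after seeing the data. The difference in TP3 response had 1, and 0 without a filter on low counts, with filterByExpr, with limma-voom, with the compared groups alone and with all 34 tumors. The cause was not tested. Same-numbered tumors did not deviate together in the median (r = -0.04 in 60577 and -0.08 in HGS2). Single pairs ran from -0.42 to 0.32 and from -0.49 to 0.37. The numbers were therefore not taken as pairs, though a median cannot exclude that some of them share a batch. With the replicate block the difference in TP3 response had 0 called members (Lox 1.22, adjusted p = 0.0928), and with the block and an offset for length and GC content the difference in TP2 response had 0. Crossing the numbers of the line libraries, chosen after seeing the data, left 3 called members. Leaving out 1 tumor gave 0 to 1 called members for 60577 TP1 treated against control, 0 to 2 for treated TP2 against TP1, 0 to 2 for TP3 against TP1, 0 to 2 for the difference in TP2 response and 0 to 1 for that in TP3 response. In 60577, Loxl4 also became called in 1 of 17 such fits for TP2 treated against control and in 5 of 17 for TP3 treated against TP2 control. Between control tumors of the models it kept its call in 25 of 33. In the lines, leaving out 1 library leaves 1 in its group. The log2 fold changes then ran from 2.82 to 4.24 for Lox, 0.55 to 2.10 for Loxl1 and 1.33 to 1.96 for Loxl2. For Loxl3 they ran from -0.71 to 0.03 and for Loxl4 from -2.54 to -1.79. For Loxl4 between TP3 treated tumors leaving out 1 tumor gave -0.20 (edgeR adjusted p = 0.882, without HGS2 TP3 treated replicate 3) to 3.32. With 2 to 4 libraries per group, the 95% intervals set what could be detected.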
